A study of Homo sapiens with 30 samples.

Results

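The transcription factors and cadherins that mark epithelial-mesenchymal transition (EMT) were followed as 9 genes picked by symbol, out of 61578 genes in the count tables: the transcription factors SNAI1, SNAI2, TWIST1, ZEB1 and ZEB2, the cadherins CDH1 and CDH2, and VIM and FN1. RNA was sequenced from 30 libraries in 15 groups of 2, labelled as A549, a human lung adenocarcinoma line. The treated groups carried an RPB1 degron, a version of the largest RNA polymerase II subunit (gene POLR2A) that dTAGV-1 sends for degradation. The degron line received 100 nM dTAGV-1 for 12 h. The WT, Y1F, S2A, T4V, S5A and S7A lines carry the same degron and a complementing RPB1 induced by doxycycline, with a wild-type C-terminal domain (CTD) or with tyrosine 1 changed to phenylalanine, serine 2, 5 or 7 to alanine, or threonine 4 to valine in its repeated heptad. They received 2 µg/mL doxycycline for 24 h and dTAGV-1 for 12 h, so the degron line differs from them in doxycycline as well as in the complement. The references were the 7 lines without treatment and Mock, untreated cells of wild-type genotype without the degron. Whether a line is 1 clone is not given in the sources used here, and the labels do not say whether the 2 libraries of each group came from different cultures. The p-values therefore measure the spread between libraries alone, which can be technical.

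EMT is the passage of epithelial cells to a motile mesenchymal state. SNAI1 (Snail), SNAI2 (Slug), TWIST1, ZEB1 and ZEB2 bind E-box sequences and repress epithelial genes, foremost CDH1, which encodes E-cadherin, the adhesion molecule of epithelial junctions. Mesenchymal cells carry N-cadherin (CDH2), the intermediate filament vimentin (VIM) and the matrix glycoprotein fibronectin (FN1). SNAI1 is known to be quickly induced by growth factors in many cell types.

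Levels are the deposited TPM values, which are corrected for gene length and express each transcript as a share of its library. Changes are log2 fold changes ± standard error of the raw counts, from edgeR's quasi-likelihood test fitted to all 30 libraries, n = 2 libraries per group. A gene was called where its Benjamini-Hochberg adjusted p over 19982 tested genes was under 0.05, and "rose" and "fell" are used of called genes. All 9 genes passed the low-count filter, with or without the Mock libraries in the fit. CDH1 passed only through treated or Mock libraries. Its untreated libraries in the 7 lines held 0 to 9 counts, under the filter's minimum count of 10, and the treated ones 3 to 20. Library totals were 10866089 to 17912802 counts, which limits the precision for CDH1 in particular.

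The 28 libraries of the degron-carrying lines went against the A549 label in their marker genes. The summed level of 14 A549 and lung epithelial markers was 74.6 to 149.5 TPM in treated lines and 79.1 to 128 TPM in untreated lines, against 31780 to 31940 TPM in Mock. AKR1B10, an A549-typical aldo-keto reductase, was at 0 to 0.201 TPM in the 28 degron-carrying libraries and at 9714 to 9747 TPM in Mock. Of the same list, NKX2-1, a lung and thyroid transcription factor, went the other way, at 1.53 to 14.2 TPM in the lines against 0 to 0.303 TPM in Mock, and the surfactant gene SFTPB was at 0 to 1.18 TPM in the lines and 0.0733 to 0.0778 TPM in Mock. A list of 8 HEK293, kidney or neuronal markers summed to 165 to 529.6 TPM in treated lines and 436 to 763 TPM in untreated lines, against 16.9 to 19.1 TPM in Mock. Of these lists, 6 of the 14 A549 genes and 7 of the 8 others averaged at least 1 TPM over the treated libraries. An immune list of 6 genes summed to 16.7 to 32.0 TPM in treated lines and 6.22 to 10.8 TPM in untreated lines, with PTPRC, the pan-leukocyte marker, at or under 0.0429 TPM. A fibroblast list of 7 genes summed to 10.1 to 33.5 TPM and 12.2 to 32.1 TPM, with DCN and COL1A2 at or under 0.143 TPM but the collagen genes COL1A1 at 7.35 to 21.3 TPM and COL3A1 at 2.16 to 10.9 TPM in the lines, and 5 endothelial genes to 1.36 to 5.15 TPM and 0.316 to 1.98 TPM. The part of these markers in the results below was not tested. CDH1 is itself one of the A549 markers, so its difference from Mock is part of this mismatch. Comparisons with Mock therefore set apart cells that differ in far more than the degron, and the comparisons of treated with untreated samples stay within one line.

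POLR2A mRNA, from which both the degradable and the induced RPB1 are made, stood at 193 to 819 TPM in treated lines and 141 to 287 TPM in untreated lines, with 152 and 178 TPM in Mock. These counts pool both copies, and dTAGV-1 acts on the protein.

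TMM scaling centres the log2 fold changes near 0, and all values below use it unless another is named. Under 2 other scalings of the same counts the median log2 fold change over all genes moved below 0. By 13 mitochondrial mRNAs it was lowest in S5A at -0.70, then T4V at -0.54, S2A at -0.50, the degron line at -0.42, S7A at -0.38, Y1F at -0.30 and WT at -0.17. By the size factors of the authors, solved from their deposited base means, S5A stood at -0.92, Y1F at -0.82, S7A at -0.81, the degron line at -0.79, S2A at -0.53, T4V at -0.41 and WT at -0.19. The balance of genes risen and fallen over all genes moved with it, for instance in the degron line with 4609 risen and 4272 fallen under TMM, 1942 and 8499 by mitochondrial mRNAs, and 1384 and 12159 by the authors' factors. By mitochondrial mRNAs 2121 rose and 11359 fell in S5A, 831 and 9645 in T4V, 1480 and 9209 in S2A, 1853 and 7645 in S7A, 2667 and 7326 in Y1F, and 406 and 1894 in WT. By the authors' factors 1749 rose and 12496 fell in S5A, 1297 and 12265 in S7A, 1610 and 11982 in Y1F, 1374 and 8769 in S2A, 887 and 6731 in T4V, and 274 and 379 in WT. Under TMM the same counts were 5098 and 4830 in S5A, 3547 and 3420 in S7A, 4606 and 4189 in Y1F, 3387 and 3628 in S2A, 2959 and 2807 in T4V, and 618 and 367 in WT.

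SNAI1 and SNAI2, paralogous zinc-finger repressors, moved in opposite directions on treatment in all 7 lines. SNAI1 (chromosome 20, 49982999 to 49988886, plus strand; GRCh38, GENCODE 29) stood at 28.4 and 34.2 TPM in the treated degron line, against 12.1 and 13.1 TPM in the untreated one. In WT it was at 18.4 and 23.3 TPM treated, against 10.3 and 12.2 TPM untreated. The WT libraries were thus the lowest of the treated ones, and still above every untreated library of any line. With Y1F it stood at 41.8 and 40.5 TPM treated, against 10.4 and 8.45 TPM untreated. With S2A it stood at 40.7 and 42.0 TPM treated, against 3.51 and 2.41 TPM untreated, the lowest starting level of the 7 lines. T4V had 28.3 and 24.7 TPM treated, against 11.2 and 6.88 TPM untreated. S5A had 25.2 and 25.5 TPM treated, against 11.6 and 11.8 TPM untreated. S7A had 28.2 and 41.9 TPM treated, against 8.71 and 8.81 TPM untreated. Mock had 2.25 and 3.00 TPM. The treated and untreated libraries did not overlap in any line, the treated ones as a whole running between 18.4 and 42.0 TPM and the untreated ones between 2.41 and 13.1 TPM.

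SNAI1 rose in all 7 lines, with log2 fold changes of 3.93 ± 0.27 in S2A, 2.11 ± 0.23 in Y1F, 2.06 ± 0.23 in S7A, 1.65 ± 0.23 in T4V, 1.44 ± 0.22 in the degron line, 1.17 ± 0.23 in S5A and 0.94 ± 0.23 in WT. The adjusted p of edgeR's test was 0.019 in WT and between 7.5e-10 and 0.00022 in the other lines. The call in WT was lost without untreated WT replicate 1 (0.82, adjusted p = 0.2), without untreated WT replicate 2 (1.06, adjusted p = 0.085) and without treated WT replicate 2 (0.69, adjusted p = 0.24), and in the 4 WT libraries alone (adjusted p = 0.2). All values were positive under the other scalings too, but WT (0.73 under both) and S5A (0.43 by mitochondrial mRNAs and 0.22 with the authors' factors) were then not called. In the authors' deposited table SNAI1 had a log2 fold change of 0.58 in the degron line (adjusted p = 0.143) and 3.43 in S2A (adjusted p = 5.6e-19).

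SNAI2 (chromosome 8, 48917604 to 48921740, minus strand) was the most abundant of the 5 EMT factors in the untreated lines and fell in each on treatment. It stood at 8.41 and 6.85 TPM in the treated degron line, against 54.7 and 72.5 TPM in the untreated one. In WT it was at 25.5 and 21.9 TPM treated, against 44.1 and 47.5 TPM untreated. In Y1F it was at 18.8 and 13.9 TPM treated, against 63.6 and 72.2 TPM untreated. S2A had 47.6 and 47.0 TPM treated, against 156 and 161 TPM untreated, the highest level of any group. T4V had 19.2 and 21.8 TPM treated, against 43.3 and 52.6 TPM untreated. S5A had 5.66 and 5.66 TPM treated, the lowest of the treated libraries, against 65.5 and 65.9 TPM untreated. S7A had 29.5 and 25.9 TPM treated, against 97.7 and 85.2 TPM untreated. No line had overlapping groups. Mock was near the detection floor, with 0 and 2 counts.

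The log2 fold change of SNAI2 was -3.48 ± 0.17 in S5A, -2.93 ± 0.16 in the degron line, -2.06 ± 0.15 in Y1F, -1.67 ± 0.14 in S7A, -1.61 ± 0.14 in S2A, -1.10 ± 0.15 in T4V and -0.92 ± 0.14 in WT. Adjusted p in edgeR's test was 0.0005 in WT and between 1.9e-12 and 1.2e-05 in the others. SNAI2 was called lower in all 7 lines under the 3 scalings, and with TMM and each library left out in turn. The call in WT was lost when the 4 WT libraries were fitted alone (-0.92, adjusted p = 0.1), and in the authors' deposited table WT had a log2 fold change of -1.17 with an adjusted p of 0.224.

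**Figure D1:**
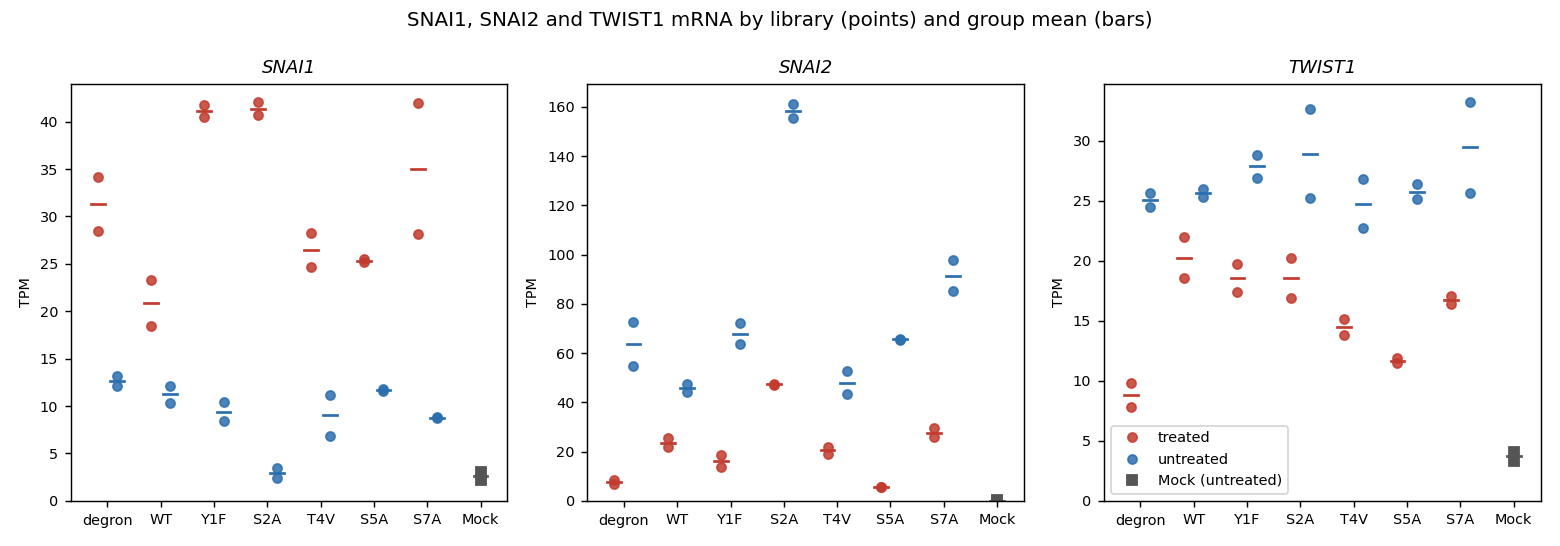
Levels of SNAI1, SNAI2 and TWIST1 in TPM (vertical axes) for each library of the 7 lines, treated left of untreated, and for Mock. Points are single libraries and bars are group means; SNAI1 was higher and SNAI2 lower in both treated libraries of every line, while the smallest separation for TWIST1 was in WT.

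The proportion between both transcripts turned over in most lines. The ratio of SNAI1 to SNAI2 in TPM was 3.38 and 4.99 in the treated degron line, against 0.222 and 0.181 untreated. S5A reached 4.44 and 4.51 treated, against 0.177 and 0.178 untreated, and Y1F reached 2.23 and 2.91 treated, against 0.163 and 0.117 untreated. T4V stood at 1.48 and 1.13 treated, against 0.257 and 0.131 untreated. SNAI1 thus exceeded SNAI2 in both treated libraries of these 4 lines, and in 1 of the 2 treated libraries of WT (0.724 and 1.06) and of S7A (0.953 and 1.62). Untreated WT had 0.234 and 0.256, and untreated S7A had 0.0891 and 0.103. In S2A, where SNAI2 started highest and SNAI1 lowest, the treated libraries stayed below 1, at 0.854 and 0.895, against 0.0225 and 0.0149 untreated.

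**Figure D2:**
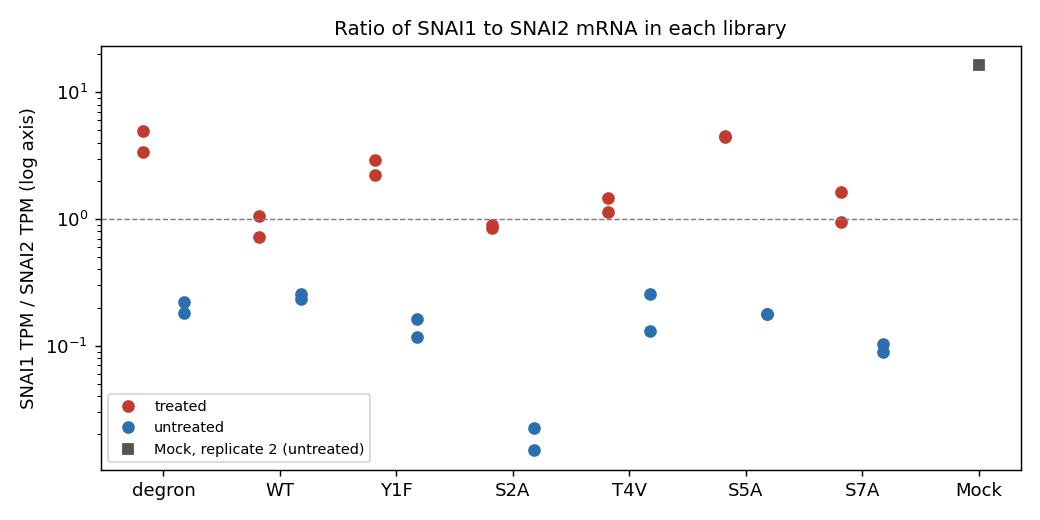
Ratio of SNAI1 to SNAI2 TPM per library on a logarithmic vertical axis, treated left of untreated in each line, with Mock at the right. Only Mock replicate 2, at 16.4, has a ratio, since replicate 1 had 0 SNAI2 counts; every treated library lies above every untreated one of the 7 lines.

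TWIST1 (chromosome 7, 19020991 to 19117672, minus strand), a basic helix-loop-helix factor of mesoderm and neural crest, fell in 6 of the 7 lines. It stood at 9.86 and 7.86 TPM in the treated degron line, against 25.7 and 24.5 TPM untreated, and at 11.5 and 11.9 TPM in treated S5A, against 25.1 and 26.4 TPM untreated. These were the lines with the largest decreases, with log2 fold changes of -1.38 ± 0.17 (adjusted p = 9.1e-07) and -1.09 ± 0.17 (adjusted p = 1.6e-05). WT had 18.6 and 22.0 TPM treated, against 26.0 and 25.3 TPM untreated, and was not called (-0.30 ± 0.16, adjusted p = 0.32). Y1F had 19.8 and 17.4 TPM treated, against 26.9 and 28.9 TPM untreated. S2A had 20.2 and 16.9 TPM treated, against 25.2 and 32.6 TPM untreated. T4V had 13.8 and 15.2 TPM treated, against 26.8 and 22.7 TPM untreated. S7A had 16.4 and 17.1 TPM treated, against 25.6 and 33.3 TPM untreated. The groups did not overlap in any line, the log2 fold changes in these 4 being -0.60 in Y1F, -0.51 in S2A, -0.66 in T4V and -0.75 in S7A (edgeR adjusted p between 0.00084 and 0.015). The call in S2A was lost without untreated S2A replicate 2 (-0.35, adjusted p = 0.17), without treated S2A replicate 2 (-0.41, adjusted p = 0.12) and with no low-count filter (adjusted p = 0.063); that in T4V was lost in the 4 T4V libraries alone (adjusted p = 0.065). Mock had 3.36 and 4.07 TPM.

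ZEB1 and ZEB2, which pair zinc-finger clusters around a homeodomain, moved far less. ZEB1 (chromosome 10, 31318495 to 31529814, plus strand) held a narrow range in all 30 libraries: 10.6 to 18.8 TPM treated (median 14.6), 12.8 to 17.6 TPM untreated (median 14.3), and 12.4 and 10.5 TPM in Mock. It was called in 0 of the 7 lines with edgeR (-0.20 to 0.27, adjusted p between 0.12 and 0.97). With the 15 groups ordered by mean, the ranges of their 2 libraries overlapped in all 14 neighbouring pairs. Relative to the other scalings the values were all below 0, -0.70 to -0.21 by mitochondrial mRNAs and -0.89 to -0.31 with the authors' factors, with 5 of 7 lines called lower under each. ZEB1 overlaps the antisense gene ZEB1-AS1, which averaged 5.17 TPM against 14.3 TPM for ZEB1, and without a stated strand setting their reads cannot be told apart.

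ZEB2 (chromosome 2, 144364364 to 144524583, minus strand) ran between 2.53 and 7.25 TPM treated and between 3.96 and 8.04 TPM untreated, against 0.342 and 0.518 TPM in Mock. With TMM scaling it was called in 1 line, the degron line, where it fell, with 3.14 and 2.53 TPM treated against 3.96 and 4.13 TPM untreated (-0.39 ± 0.13, adjusted p = 0.022). This call was lost on leaving out either untreated degron library (adjusted p = 0.079 and 0.07) or the second treated one (adjusted p = 0.15), and in the 4 degron libraries alone (adjusted p = 0.12). In the other lines the values ran between -0.28 in S2A and 0.13 in T4V, and the T4V value turned to -0.46 by mitochondrial mRNAs and -0.34 with the authors' factors. ZEB2 was called lower in 6 of 7 lines by mitochondrial mRNAs and in 5 of 7 with the authors' factors.

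CDH1 (chromosome 16, 68737225 to 68835548, plus strand), the E-cadherin gene, was barely counted in the degron-carrying lines. The 14 treated libraries held 3 to 20 counts and the 14 untreated ones 0 to 9, against 994 and 1003 counts in Mock (52.3 and 49.7 TPM). The highest treated library, S7A replicate 1, reached 1.00 TPM. CDH1 rose in 4 lines, but it entered these tests through libraries in which it was high, treated ones or Mock. Y1F had 11 and 10 counts treated, against 0 and 0 untreated, at least 5.28-fold higher with 3 counts set as the limit over the 2 untreated libraries, while the 95% counting interval of the ratio starts at 3.93 (adjusted p = 6.2e-05). S5A had 14 and 14 counts treated, against 1 and 0 untreated, a ratio of 31.3 with a 95% counting interval of 5.18 to 1281 (adjusted p = 5.9e-06). T4V had 9 and 11 counts treated, against 4 and 1 untreated (2.29 ± 0.51, adjusted p = 0.0022), and S7A had 20 and 12 counts treated, against 5 and 2 untreated (2.34 ± 0.43, adjusted p = 0.00027). The degron line, with 17 and 15 counts treated against 9 and 7 untreated, was not called (0.70 ± 0.36, adjusted p = 0.17), nor was WT, with 6 and 4 against 2 and 3 counts (adjusted p = 0.41). S2A had 4 and 3 counts treated, against 2 and 1 untreated, a ratio of 2.82 with a counting interval of 0.644 to 16.9. Intervals and floors cover counting error only.

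Weakly counted genes as a whole tilted the same way as CDH1. Of the 4769 tested genes with a mean below 1 CPM over the 28 degron-carrying libraries, 33.6% were called higher and 2.81% lower in Y1F, 37.9% and 3.82% in S5A, 25.3% and 1.91% in S7A, and 13% and 2.12% in T4V. The shares were 28.3% and 5.16% in the degron line, 20.1% and 2.18% in S2A, and 2.73% and 0.168% in WT. Such genes entered the tests through the libraries in which they reached the filter's minimum. The part of this entry, or of the tilt, in the CDH1 values was not tested. Values of CDH1 in the degron line changed sign with the authors' factors (-0.14, not called). The other lines kept positive values, and the same number of lines, 4, was called higher by edgeR under each scaling. In the authors' deposited DESeq2 results the adjusted p of CDH1 was 0.0472 in S5A, 0.0692 in Y1F and 0.249 in S7A. No adjusted p was given there for T4V, and the other lines had 0.727 in S2A, 0.927 in the degron line and 0.999 in WT.

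CDH2 (chromosome 18, 27950966 to 28177446, minus strand), the N-cadherin gene, was well expressed throughout, at 17.9 to 56.1 TPM treated (median 44.1) and 20.6 to 57.0 TPM untreated (median 46.5), with 20.2 and 19.5 TPM in Mock. The lines fell into 2 levels that treatment did not join: S2A and S7A stood at 17.9 to 22.7 TPM treated and 20.6 to 28.9 TPM untreated, and the other 5 lines at 35.3 TPM or more. CDH2 fell in S2A, with 19.6 and 19.4 TPM treated against 28.9 and 28.9 TPM untreated (-0.44 ± 0.11, adjusted p = 0.0031 in edgeR's test). The other 6 lines ran between -0.17 in Y1F and -0.04 in T4V and were not called. With either of the other scalings 6 of 7 lines were called lower, at values down to -1.05.

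**Figure D3:**
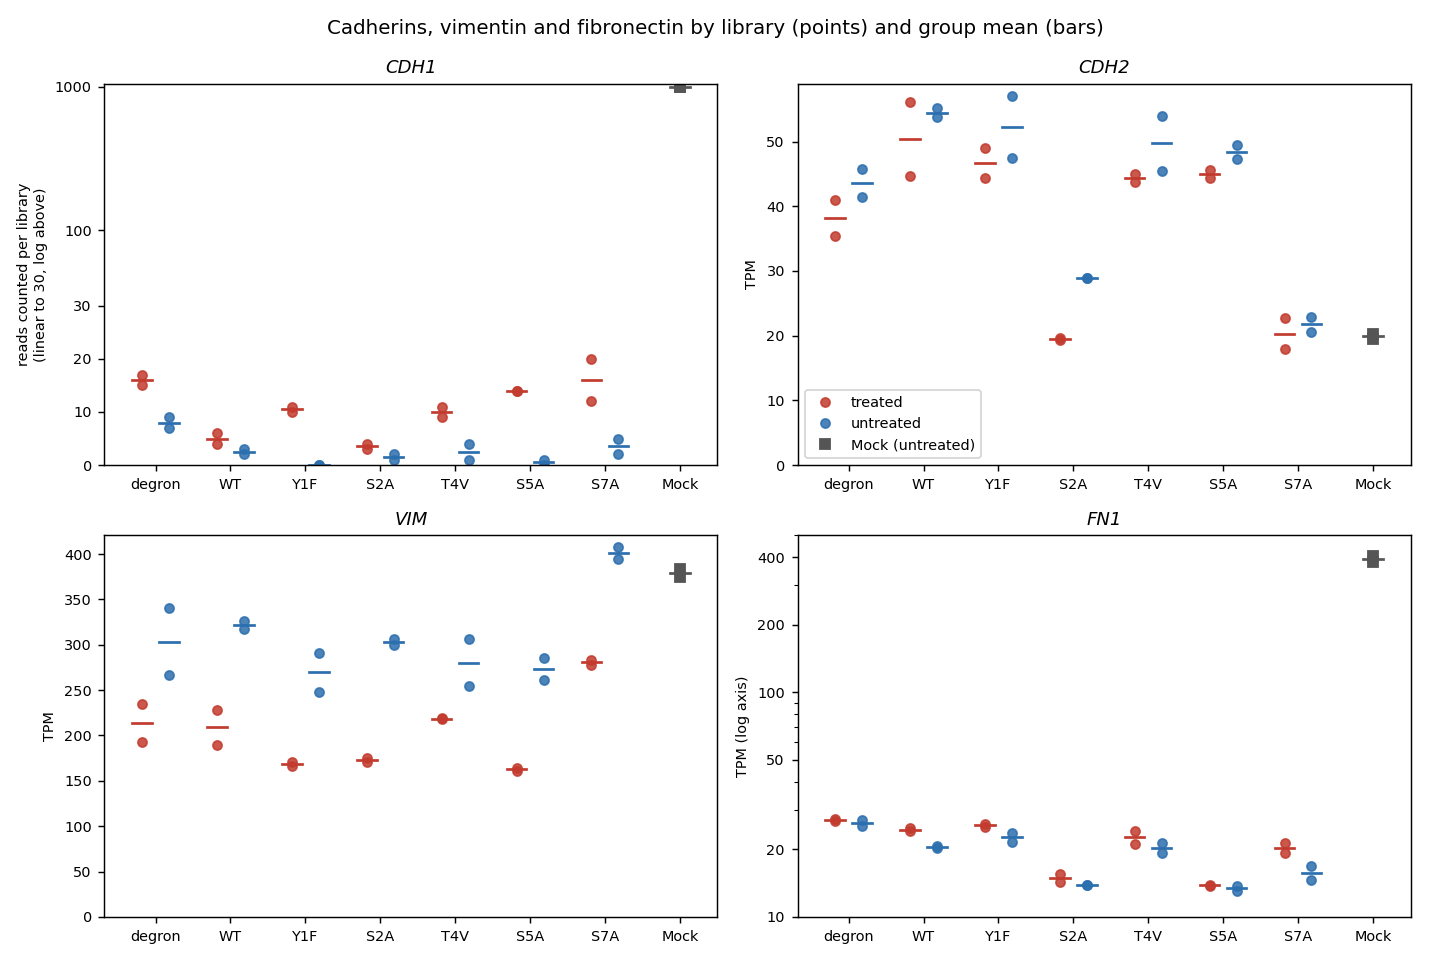
Levels per library of CDH1 (counts, axis linear near 0 and logarithmic above), CDH2 and VIM (TPM, linear axes) and FN1 (TPM, logarithmic axis), treated left of untreated in each of the 7 lines and Mock at the right. CDH1 stays at 0 to 20 counts in the 7 lines against 994 and 1003 in Mock, VIM is lower in the treated libraries, and FN1 lies at 13.1 to 27.2 TPM against 381 and 403 TPM in Mock.

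For the structural genes and for ZEB1 the RefSeq promoter table (GRCh38.p14) holds sequence, and the 250 bases before 1 start site are shown for each, in the direction of the gene, because ZEB1 was not called in any line, VIM fell and FN1 had the largest difference from Mock among the 5 genes with an entry. Entries matched 5 of the 9 genes: ZEB1, ZEB2, CDH2, VIM and FN1. Capitals mark the E-box CACCTG or CAGGTG (which the SNAI and ZEB factors are known to bind), TGACGTCA (the cyclic AMP response element) and TATAA or TTATA, searched on both strands. The windows were chr10:31318966-31319215 on the plus strand for ZEB1, chr10:17227991-17228240 on the plus strand for VIM and chr2:215436069-215436318 on the minus strand for FN1.
ZEB1: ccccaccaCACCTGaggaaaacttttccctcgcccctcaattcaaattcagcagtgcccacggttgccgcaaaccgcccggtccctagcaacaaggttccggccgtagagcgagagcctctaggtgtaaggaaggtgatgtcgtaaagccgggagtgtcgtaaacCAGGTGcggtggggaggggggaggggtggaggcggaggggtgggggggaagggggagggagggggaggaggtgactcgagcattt
VIM: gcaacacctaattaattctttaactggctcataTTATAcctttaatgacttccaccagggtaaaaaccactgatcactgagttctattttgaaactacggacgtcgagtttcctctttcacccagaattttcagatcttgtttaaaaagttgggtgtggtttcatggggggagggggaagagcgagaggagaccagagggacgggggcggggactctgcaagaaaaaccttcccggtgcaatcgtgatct
FN1: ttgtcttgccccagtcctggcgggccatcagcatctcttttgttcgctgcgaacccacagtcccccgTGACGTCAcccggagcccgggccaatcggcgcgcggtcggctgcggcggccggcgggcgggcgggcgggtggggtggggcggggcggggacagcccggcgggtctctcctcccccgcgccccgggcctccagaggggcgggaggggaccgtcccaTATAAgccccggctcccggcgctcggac
The table holds 7 windows for ZEB1, of which the one printed has 2 such E-boxes, the most of them, another has 1 and the other 5 have 0. The VIM window holds 1 TTATA far from its start, and the FN1 window holds 1 TGACGTCA and 1 TATAA close to its start. Of 35116 promoters of this length, 17.5% held CACCTG or CAGGTG, 1.65% held TGACGTCA and 18.9% held TATAA or TTATA. A match describes the letters of the window and no binding was measured.

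VIM (chromosome 10, 17228259 to 17237593, plus strand) fell in 6 of the 7 lines by moderate amounts. The treated libraries ran between 161 and 284 TPM (median 191) and the untreated ones between 248 and 408 TPM (median 303), with 384 and 375 TPM in Mock. S5A had 164 and 161 TPM treated, against 285 and 261 TPM untreated (-0.70 ± 0.10, adjusted p = 6.2e-06). Y1F had 171 and 167 TPM treated, against 248 and 291 TPM untreated (-0.69 ± 0.10), and S2A had 170.4 and 175 TPM treated, against 307 and 300.0 TPM untreated (-0.68 ± 0.10). WT had 229 and 189 TPM treated, against 318 and 326 TPM untreated (-0.60 ± 0.10, adjusted p = 0.00076). S7A, the line with the highest levels in both conditions, had 284 and 278 TPM treated, against 395 and 408 TPM untreated (-0.46 ± 0.10). The degron line had 235 and 192 TPM treated, against 266 and 341 TPM untreated (-0.38 ± 0.10, adjusted p = 0.0032), a call that was lost without untreated degron replicate 2 (-0.24, adjusted p = 0.1). T4V had 218 and 219 TPM treated, against 254 and 306 TPM untreated, and missed the threshold (-0.23 ± 0.10, adjusted p = 0.079). Fitted with their own 4 libraries alone, the degron line (adjusted p = 0.071), WT (adjusted p = 0.17) and S7A (adjusted p = 0.052) were not called. Under both other scalings VIM was called lower in all 7 lines. VIM-AS1, on the opposite strand, averaged 3.67 TPM against 264 TPM for VIM.

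FN1 (chromosome 2, 215360440 to 215436172, minus strand) rose in 2 of the 7 lines by small amounts. S7A had 19.2 and 21.4 TPM treated, against 14.6 and 16.9 TPM untreated (0.43 ± 0.10, adjusted p = 0.0016), and T4V had 21.1 and 24.2 TPM treated, against 21.4 and 19.3 TPM untreated (0.27 ± 0.10, adjusted p = 0.037), where the TPM of both groups overlapped. The T4V call was lost without untreated T4V replicate 2 (0.15, adjusted p = 0.33), treated T4V replicate 1 (0.29, adjusted p = 0.075) or treated T4V replicate 2 (0.16, adjusted p = 0.38), without Mock in the fit (0.24), and in the 4 T4V libraries alone (0.27, adjusted p = 0.3). Other lines ran between 0.10 in S5A and 0.29 in WT and were not called. The sign depended on the scaling: with the authors' factors S7A stood at -0.40 and T4V at -0.18, 6 of 7 lines were below 0 and 4 were called lower, while by mitochondrial mRNAs S7A was at 0.04 and not called.

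**Figure D4:**
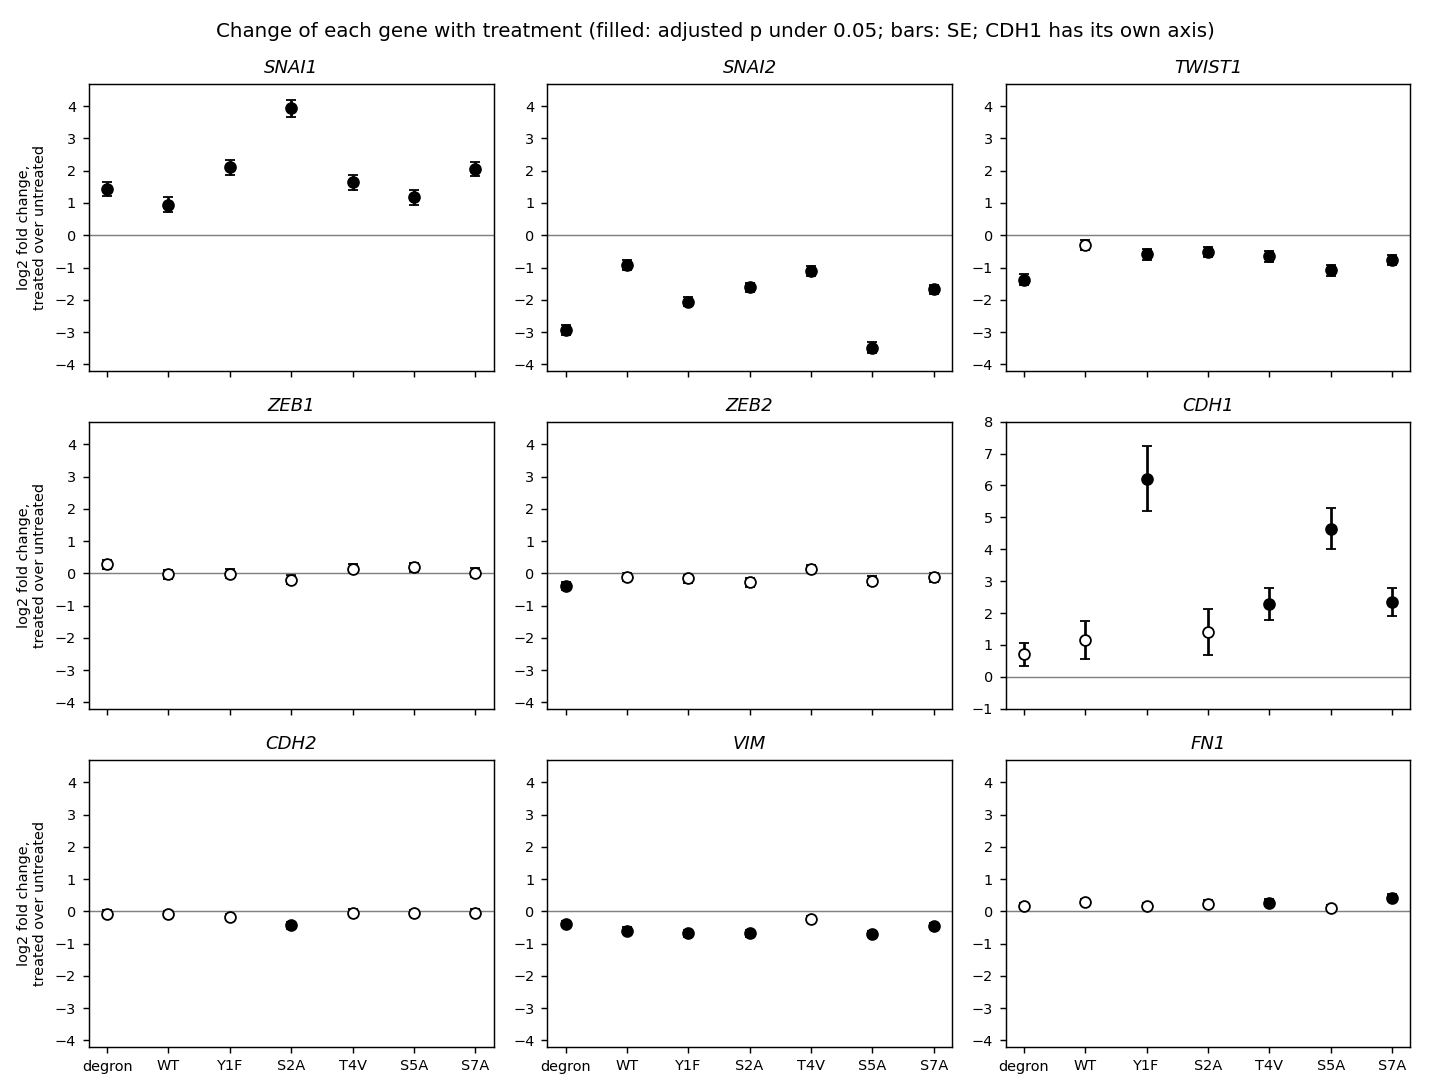
Log2 fold change, treated against untreated, of the 9 genes in the 7 lines (edgeR, TMM scaling); bars are 1 standard error, n = 2 libraries per group, and filled points are called at an adjusted p under 0.05. SNAI1 lies above 0 and SNAI2 below 0 in all 7 lines; the CDH1 value in Y1F is fitted against 0 counts and is no bound, and the FN1 and ZEB1 values change sign under other scalings.

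Counted by line, 1 of the 9 genes rose and 4 fell in the degron line, where 23.1% of all tested genes rose and 21.4% fell. In WT 1 rose and 2 fell, where 3.09% of all genes rose and 1.84% fell; fitted on its own 4 libraries, WT had 0 of the 9 called in edgeR's test, among 50 genes called in all instead of 985. Y1F had 2 risen and 3 fallen (background 23.1% and 21%), S2A 1 and 4 (17% and 18.2%), and T4V 3 and 2 (14.8% and 14%). S5A had 2 risen and 3 fallen (25.5% and 24.2%), and S7A 3 and 3 (17.8% and 17.1%). The median log2 fold change of the 9 genes was -0.28 in S2A, -0.16 in Y1F and between -0.08 and 0.13 in the other lines, beside medians over all tested genes between -0.01 and 0.05. The 9 genes had no common direction: SNAI2 was the lowest of them in each line, and SNAI1 or CDH1 the highest.

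**Figure D5:**
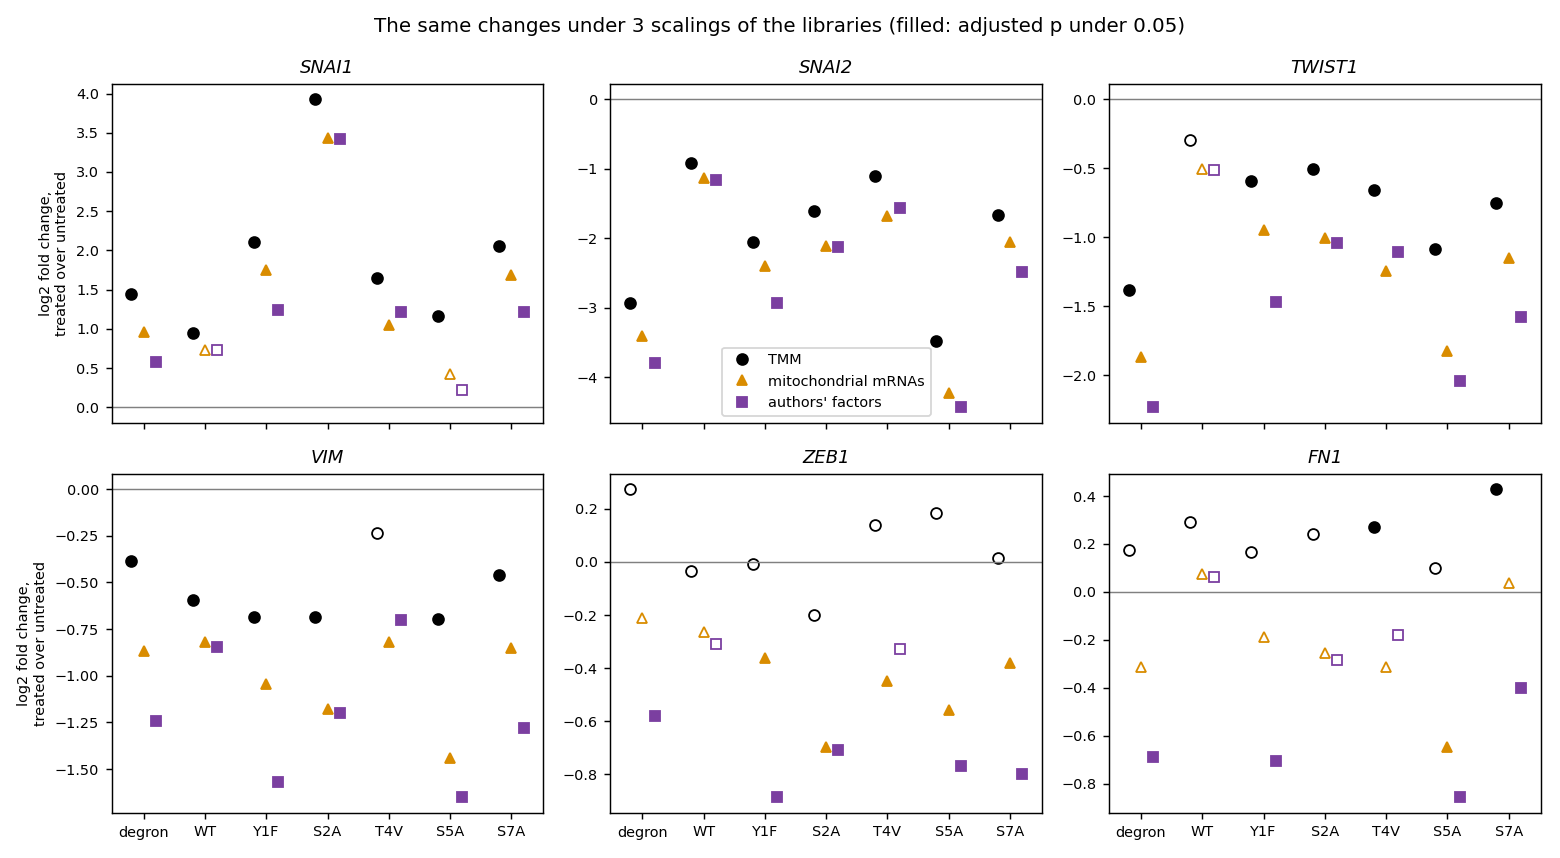
Log2 fold changes, treated against untreated, of SNAI1, SNAI2, TWIST1, VIM, ZEB1 and FN1 in the 7 lines under TMM, mitochondrial scaling and the authors' factors. SNAI1 stays above 0 and SNAI2, TWIST1 and VIM below 0 under the 3 scalings, while ZEB1 and FN1 lie around or above 0 under TMM and mostly below 0 with the others.

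Whether the complement altered the response was tested as the difference between the changes of 2 lines. The change in WT minus the change in the degron line was called for SNAI2 (2.01 ± 0.21, adjusted p = 1.9e-06) and TWIST1 (1.08 ± 0.23, adjusted p = 0.0029), 2 of the 9 genes where 12% of all genes were called; both fell less in WT. The TWIST1 difference was not called when these 8 libraries were fitted alone (1.06, adjusted p = 0.064). For SNAI1 the difference was -0.50 ± 0.32 (adjusted p = 0.35), and for VIM it was -0.21 ± 0.14 (adjusted p = 0.36). The lines also differ in doxycycline, so the complement and doxycycline cannot be told apart here.

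Mutant lines were each set against WT, and all 5 comparisons share the WT libraries. S2A minus WT was 2.99 ± 0.37 for SNAI1 (adjusted p = 3.8e-05), whose treated level in S2A resembled that in Y1F while its untreated level was the lowest, and -0.69 ± 0.20 for SNAI2 (adjusted p = 0.037), 2 of the 9 genes beside 7.53% of all genes. The SNAI2 value lost its call in each of the 8 fits without 1 WT or S2A library (-0.75 to -0.64, adjusted p between 0.056 and 0.15). S5A minus WT was -2.56 ± 0.22 for SNAI2 (adjusted p = 1.7e-07), -0.79 ± 0.23 for TWIST1 (adjusted p = 0.02) and positive for CDH1 (adjusted p = 0.044), 3 of the 9 beside 18.1% of all genes. The TWIST1 call was lost without untreated WT replicate 2 (-0.78, adjusted p = 0.059) or treated WT replicate 2 (-0.61, adjusted p = 0.12), and CDH1 rests on 1 count in untreated S5A and was lost in 7 of the 8 fits without 1 library of either line and under both other scalings (adjusted p = 0.06 by mitochondrial mRNAs and 0.07 with the authors' factors). Y1F minus WT was -1.14 ± 0.21 for SNAI2 (adjusted p = 0.0012) and 1.16 ± 0.33 for SNAI1 (adjusted p = 0.028), 2 of the 9 beside 9.73% of all genes. The SNAI1 value was lost in 6 of the 8 fits without 1 library (0.96 to 1.27, adjusted p between 0.057 and 0.13) and under both other scalings (1.02, adjusted p = 0.096, by mitochondrial mRNAs; 0.51, adjusted p = 0.28, with the authors' factors).

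In T4V 0 of the 9 genes differed from WT in edgeR's test (3.7% of all genes did), with SNAI1 at 0.70 ± 0.33 (adjusted p = 0.25), SNAI2 at -0.18 ± 0.21 (adjusted p = 0.69) and VIM at 0.36 ± 0.14 (adjusted p = 0.15); SNAI1 and VIM had an unadjusted p of 0.044 and 0.016. In S7A, 0 of the 9 genes differed from WT where 0.821% of all genes did, with SNAI1 at 1.11 ± 0.33 (adjusted p = 0.1) and SNAI2 at -0.75 ± 0.20 (adjusted p = 0.078), whose unadjusted p was 0.0026 and 0.0013; DESeq2's Wald test called SNAI2 there (-0.69, adjusted p = 0.042). These misses do not show that T4V or S7A acted like WT. ZEB1, ZEB2, CDH2, VIM and FN1 were called in 0 of these 6 differences with edgeR.

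The lines differed before treatment too, each set against the same 2 untreated degron libraries. S2A had the largest shifts of the SNAI pair: SNAI1 stood at 3.51 and 2.41 TPM in untreated S2A, against 12.1 and 13.1 TPM in the untreated degron line (-2.06 ± 0.30, adjusted p = 1.3e-05), and SNAI2 at 156 and 161 TPM, against 54.7 and 72.5 TPM (1.35 ± 0.14, adjusted p = 1e-07). With CDH1, CDH2 (-0.57) and FN1 (-0.89), 5 of the 9 genes were called in S2A, beside 36.3% of all genes. S7A also had 5 called beside 18.7% of all genes: CDH2 (-0.99), FN1 (-0.72), SNAI2 (0.54), VIM (0.42) and ZEB2 (0.38). Of these, SNAI2, VIM and ZEB2 were each lost in at least 1 fit without 1 library, SNAI2 without untreated degron replicate 1 (0.38) or untreated S7A replicate 1 (0.40), VIM likewise (0.28 and 0.40) and ZEB2 without any of the 4 (0.26 to 0.48). CDH2 was at 20.6 and 22.9 TPM in untreated S7A and 28.9 and 28.9 TPM in untreated S2A, against 41.4 and 45.8 TPM in the untreated degron line.

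WT had 3 called beside 10.2% of all genes, namely ZEB2 (0.68), SNAI2 (-0.51) and FN1 (-0.39), and T4V had 2 beside 13.3%, namely ZEB2 (0.80) and FN1 (-0.35), neither of which was called when these 4 libraries were fitted alone (adjusted p = 0.073 and 0.38). FN1 was lost in WT without any 1 of the 4 libraries (adjusted p between 0.065 and 0.095) and in T4V without untreated degron replicate 1 or 2 or untreated T4V replicate 2 (adjusted p between 0.087 and 0.22), and SNAI2 in WT without untreated degron replicate 2 or either untreated WT library (adjusted p between 0.095 and 0.24). Y1F had 2 beside 11%, ZEB2 (0.79) and CDH1, and S5A had 2 beside 12.7%, FN1 (-0.99) and CDH1. CDH1 had 0 counts in untreated Y1F, against 16 in the untreated degron line, at least 4.62-fold lower with the same limit of 3 counts, while the counting interval of the ratio ends at 0.299. It had 1 count in untreated S5A (ratio 0.0606, counting interval 0.00144 to 0.390) and 3 in untreated S2A (ratio 0.178, 0.0331 to 0.620), against the same 16. The calls in S5A and S2A were lost without untreated S5A replicate 2 (adjusted p = 0.051) and without untreated S2A replicate 2 (adjusted p = 0.079).

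Set against Mock, the untreated degron line differed in 8 of the 9 genes, where 64.8% of all genes were called. SNAI2 had 669 and 701 counts in the degron line, against 0 and 2 in Mock, a ratio of 502 with a counting interval of 139 to 4152. ZEB2 (2.82 ± 0.17), TWIST1 (2.35 ± 0.20), SNAI1 (1.85 ± 0.32) and CDH2 (0.73 ± 0.11) were also higher in the degron line. CDH1 (-7.39 ± 0.23), FN1 (-4.31 ± 0.11) and VIM (-0.73 ± 0.10; -0.15 and not called by mitochondrial mRNAs) were lower. FN1 stood at 25.3 and 27.0 TPM in the untreated degron line, against 381 and 403 TPM in Mock. ZEB1 was not called (-0.22 ± 0.15, adjusted p = 0.19; 0.36 and called by mitochondrial mRNAs). Since the marker genes above also separate Mock from the lines, the degron and the identity of the cells cannot be told apart here.

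Ordered by mean TPM over the 15 groups, SNAI1 ran from treated S2A (41.4 ± 0.95, SD) and treated Y1F (41.2 ± 0.87) down to untreated S2A (2.96 ± 0.78) and Mock (2.63 ± 0.53), with all 7 treated groups above all 7 untreated ones. SNAI2 had the clearest order, with 4 of 14 neighbouring pairs overlapping in their libraries: untreated S2A (158 ± 4.1) and S7A (91.5 ± 8.8) led, treated S5A (5.66 ± 0.0034) and Mock (0.0918 ± 0.13) ended it, and treated S2A (47.3 ± 0.46) stood between untreated T4V and WT without differing from them beyond their spread. TWIST1 ran from untreated S7A (29.5 ± 5.4) to treated degron (8.86 ± 1.4) and Mock (3.72 ± 0.50), with all untreated lines above all treated ones and 8 overlapping pairs. VIM ran from untreated S7A (402 ± 9.6) and Mock (379.5 ± 6.0) to treated S5A (163 ± 2.7), with 8 overlapping pairs. FN1 ran from Mock (391.9 ± 15) past treated degron (27.0 ± 0.31) to untreated S5A (13.4 ± 0.42), with 8 overlapping pairs. CDH2 ran from untreated WT (54.5 ± 1.1) to Mock (19.9 ± 0.48) and treated S2A (19.5 ± 0.18), with 11 overlapping pairs. ZEB2 ran from untreated T4V (7.06 ± 1.4) to treated degron (2.83 ± 0.43) and Mock (0.430 ± 0.12), and CDH1 from Mock (51.0 ± 1.8) past treated S7A (0.803 ± 0.28) to untreated Y1F at 0 counts, each with 9 overlapping pairs. ZEB1 ran from treated Y1F (16.3 ± 0.99) to Mock (11.5 ± 1.3).

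Across the 14 group means of the degron-carrying lines, on log2(CPM + 1), SNAI2 and TWIST1 varied together (Pearson's r = 0.928), SNAI1 ran against SNAI2 (r = -0.734) and TWIST1 (r = -0.742), and VIM ran with SNAI2 (r = 0.716). CDH1, at its low counts, ran against TWIST1 (r = -0.828). The points share treatment and lines, so these correlations are descriptions. Genes compared in this way had a mean of at least 5 CPM over the 30 libraries, which CDH1 met only through Mock (98.95 CPM). Its group means in the lines were 0 to 1.23 CPM, so its correlations without Mock rest on few counts. Over all 15 groups and 11503 candidate genes the patterns most like SNAI1 were those of HBEGF (r = 0.963), LGMN (0.962) and NUP50-DT (0.935), and those most like SNAI2 were RIOK1 (0.976), WARS2-AS1 (0.971) and ZNF703 (0.969). TWIST1 was nearest to SNAI2 (0.965), ITPRIPL1 (0.965) and RIOK1 (0.964). ZEB2 was nearest to FOXO3 (0.967), ARID5B (0.965) and PURA (0.964), and VIM to PRPS1 (0.934), DHRS7 (0.925) and THADA (0.919). CDH2 was nearest to TTC39C (0.959), FDX1 (0.914) and DSC3 (0.88), and ZEB1 had the weakest neighbours, STX7 (0.86), AGPS (0.802) and SEPTIN10 (0.773). FN1 (MYOF 0.986, ALDH3B1 0.982, FAM114A1 0.98) and CDH1 (CLDN2 0.993, EREG 0.993, LASP1 0.992) were matched largely by their level in Mock; over the 14 groups without it the nearest gene was NRP2 (0.906) for FN1 and SSTR2 (0.938) for CDH1. The neighbours of the other genes changed too: without Mock the 3 nearest to TWIST1 were SCAMP1-AS1 (0.973), HCG18 (0.967) and LYRM2 (0.965), with SNAI2 not among them, those nearest to SNAI2 were NR2C2AP (0.975), FAXC (0.97) and RBM28 (0.965), and those nearest to ZEB2 were NRP1 (0.931), FRMD6 (0.91) and JADE3 (0.903). SNAI1 (HBEGF and LGMN), ZEB1 (STX7 and AGPS) and CDH2 (TTC39C and FDX1) had 2 of their 3 neighbours with and without Mock, and VIM had 1 (PRPS1).

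Of the other EMT transcription factors, 9 of 10 listed genes were tested. In the degron line 2 rose and 4 fell, beside 23.1% and 21.4% of all tested genes. WT had 0 risen and 1 fallen (background 3.09% and 1.84%), Y1F 1 and 4 (23.1% and 21%), and S2A 1 and 4 (17% and 18.2%). T4V had 0 and 3 (14.8% and 14%), S5A 0 and 5 (25.5% and 24.2%), and S7A 1 and 5 (17.8% and 17.1%). These shares are also the background of the list counts that follow. FOXC1, a forkhead factor of mesenchymal tissues and the most abundant of these factors, averaged 49.3 TPM in the treated degron line, against 218 TPM untreated (-2.02 ± 0.10). In treated S5A it averaged 94.8 TPM, against 280 TPM untreated (-1.51 ± 0.10). It fell in 6 lines and stood at 302 TPM treated, against 299 TPM untreated, in S2A (adjusted p = 0.24). TCF3, which encodes E2A, fell in Y1F (-0.52 ± 0.20, adjusted p = 0.042) and was not called elsewhere.

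The transcription and splicing factors of the epithelial state, 8 of 10 tested, had 2 risen and 1 fallen in the degron line, 1 and 0 in WT, 4 and 1 in Y1F, 3 and 1 in S2A, 2 and 1 in T4V, 3 and 1 in S5A, and 2 and 2 in S7A. ELF3, an epithelial ETS factor, rose in all 7 lines at low levels, with 1.12 TPM in treated S5A, against 0.125 TPM untreated, as its highest level. Its untreated means were 0 TPM in Y1F to 0.134 TPM in S7A. The part of the tilt of weakly counted genes, given above beside CDH1, in this rise and in these list counts was not tested. RBM47, an RNA-binding protein, fell in 6 lines, with 1.43 TPM in treated S2A, against 4.26 TPM untreated (-1.45 ± 0.20). GRHL1, a grainyhead factor, fell in S7A (-0.56 ± 0.19, adjusted p = 0.026) and was not called elsewhere.

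Epithelial junction genes, all 15 tested, had 1 risen and 1 fallen in the degron line, 0 and 0 in WT, 1 and 2 in Y1F, 3 and 2 in S2A, 1 and 1 in T4V, 2 and 2 in S5A, and 0 and 1 in S7A. DSP, desmoplakin of the desmosome, fell in 5 lines, with 53.7 TPM in treated S2A, against 106 TPM untreated (-0.85 ± 0.07). DSG2, a desmosomal cadherin, rose in the degron line alone (0.37 ± 0.10, adjusted p = 0.0067), and TJP1, which encodes the tight junction protein ZO-1, was called in 0 lines (-0.15 to 0.29). Among the other classical cadherins and catenins, 7 of 9 tested, 2 rose and 0 fell in the degron line, 0 and 0 in WT, 2 and 0 in Y1F, 2 and 1 in S2A, 3 and 0 in T4V, 3 and 0 in S5A, and 2 and 0 in S7A. CTNNB1, β-catenin, which links cadherins to the cytoskeleton and serves in Wnt signalling, rose in 5 lines, with 306 TPM in treated T4V, against 242 TPM untreated (0.46 ± 0.06). CTNNA1, α-catenin, rose in 5 lines by 0.32 to 0.45, and JUP, plakoglobin, was called in 0 lines.

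The TGF-beta signalling genes, which drive EMT in many epithelia, had 2 risen and 6 fallen of 13 in the degron line, 0 and 0 in WT, 3 and 4 in Y1F, 3 and 4 in S2A, 2 and 2 in T4V, 3 and 5 in S5A, and 2 and 5 in S7A. SMAD7, the inhibitory SMAD, fell in 6 lines, with 7.96 TPM in the treated degron line, against 41.5 TPM untreated (-2.25 ± 0.16), and 40.0 TPM in treated WT, against 51.9 TPM untreated (-0.33 ± 0.14, adjusted p = 0.21). The ligand genes TGFB2 and TGFB3, named after their values were seen, rose in 6 lines each, while TGFB1 was called in 0 lines. SMAD2, SMAD3 and TGFBR2, also named after their values were seen, fell in 5 lines each, and TGFBR3, named likewise, in 4. SKI, a corepressor of SMADs, rose in S2A (0.37 ± 0.11) and S5A (0.41 ± 0.11). The fibronectin receptors and mesenchymal genes had 3 risen and 2 fallen of 15 in the degron line, 0 and 1 in WT, 3 and 3 in Y1F, 1 and 3 in S2A, 3 and 2 in T4V, 4 and 4 in S5A, and 3 and 1 in S7A. SPARC, a matrix glycoprotein, rose in 5 lines, with 239 TPM in the treated degron line, against 197 TPM untreated (0.41 ± 0.11), ITGB1, the β1 chain of the fibronectin receptor, rose in 4 lines by 0.31 to 0.48, and S100A4 was called in 0 lines. VCAN, the matrix proteoglycan versican, named after its values were seen, fell in all 7 lines. The shares of all genes risen and fallen given above are the background for these counts.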

How the data were processed

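Total RNA was extracted with TRIzol, with 10% fly S2 cells added, and sequenced from both ends, per the labels' protocols. The deposited counts are whole reads per gene. Per the submitters' processing notes, the authors used featureCounts 2.0.1, STAR 2.7.3a and Trim Galore 0.6.2, with hg38 and dm6 as genome builds. As to strand, the counting mode is not given in the sources used here. TPM values, used here for levels, were also deposited by the authors, as was 1 table per treated line with base means (a signal, the counts averaged after division by size factors), log2 fold changes and p-values. The submitters' processing notes list DESeq2 1.24.0.

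Fly genes listed numbered 0, so a fly scaling could not be made, and the TMM scaling fixed for that case was used. The test was the robust quasi-likelihood one of edgeR 4.0.16 in R 4.3.3 on counts, 1 coefficient per group over 30 libraries (15 residual degrees of freedom, common dispersion 0.0122), after filterByExpr (minimum count 10, minimum total 15; 19982 genes kept, 41596 not). Rows without a symbol, 20565 in all, stayed in the fit by their ID. Adjustment was by Benjamini-Hochberg within each comparison, and each standard error is the absolute log2 fold change divided by the root of F. The comparisons were each of 7 lines treated against untreated, the change in WT minus that in the degron line, the change in each mutant minus that in WT, and untreated lines against Mock or the untreated degron line. Named genes are the 9 members, POLR2A, 3 genes with the highest TPM per list, and the 3 genes most like each member among those of at least 5 CPM, plus those said to be named after their values were seen. One gene that this rule names is not reported here.

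The members, lists and tests were chosen with earlier results of these data known. Alternatives were DESeq2 1.42.0 size factors and Wald test, scaling by 13 mitochondrial mRNAs or by the authors' factors, no low-count filter, each comparison's own libraries, a replicate block and each library left out; a crossed block and a fit without Mock were added after seeing the data. The fit was tested on simulated counts. The 2 libraries of a group differed beyond sampling noise in every group (chi-square per degree of freedom 1.29 to 27.7) and were counted as 2. Coordinates are from GENCODE 29 (GRCh38) and promoters from RefSeq (GRCh38.p14). Tables and plots used limma 3.58.1, Python 3.11.15, pandas 2.3.3, numpy 2.4.6 and matplotlib 3.10.9.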

Additional observations from a re-analysis of the deposited data

Results flagged for a closer look

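The change on treatment differed between lines, by a test of the difference itself (edgeR, adjusted over all tested genes), in 9 cases. They stand beside 12% of all genes called for WT minus degron, 7.53% for S2A minus WT, 9.73% for Y1F minus WT and 18.1% for S5A minus WT. T4V and S7A minus WT had 0 of the 9 genes called, beside 3.7% and 0.821% of all genes. SNAI2 fell less in WT than in the degron line (difference 2.01 on the log2 scale), and so did TWIST1 (1.08). SNAI2 fell more than in WT in S5A (-2.56), Y1F (-1.14) and S2A (-0.69). SNAI1 rose more than in WT in S2A (2.99) and Y1F (1.16). TWIST1 fell more in S5A than in WT (-0.79). CDH1 differed between S5A and WT by a fitted 3.50, which rests on 28 counts in treated S5A and 1 in untreated S5A. The calls of SNAI2 in S2A, SNAI1 in Y1F, and TWIST1 and CDH1 in S5A were lost on leaving out single libraries, as given above. All 9 cases share the WT libraries, and the cause of these differences was not tested.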

How the results depend on the processing

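SNAI2, called lower in 7 lines, kept its direction under every alternative, and SNAI1 kept a positive value in each line. TWIST1 and VIM stayed below 0 on treatment under the 3 scalings. Values of ZEB1, ZEB2, FN1 and CDH2 turned with the scaling; the cause was not tested. With the authors' factors ZEB1 turned to -0.58 in the degron line, -0.77 in S5A and -0.80 in S7A, FN1 to -0.69 in the degron line, -0.71 in Y1F, -0.18 in T4V, -0.86 in S5A and -0.40 in S7A, and CDH2 to -0.67 for S5A minus WT. By mitochondrial mRNAs ZEB1 turned to -0.45 in T4V, -0.56 in S5A, -0.38 in S7A and 0.36 for degron against Mock, ZEB2 to -0.46 in T4V, FN1 to -0.31 in T4V and -0.64 in S5A, and CDH2 to -0.49 for S5A minus WT.

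Of the 9 genes, the number called on treatment became 8 in the degron line (from 5), 9 in Y1F (from 5) and 8 in S5A (from 5) with the authors' factors, and 8 in Y1F, 8 in T4V (from 5) and 8 in S5A by mitochondrial mRNAs. Of all 19982 tested genes, the authors' factors called 13543 in the degron line, 13592 in Y1F and 14245 in S5A. By mitochondrial mRNAs 9993 were called in Y1F, 10476 in T4V and 13480 in S5A. For differences in change the number of the 9 called became 4 for WT minus degron (from 2), 6 for Y1F minus WT (from 2), 6 for S5A minus WT (from 3) and 2 for S7A minus WT (from 0) with the authors' factors, and 1, 6 and 1 for Y1F, S5A and S7A minus WT by mitochondrial mRNAs; untreated S5A against degron became 5 (from 2). Over all 19982 genes the authors' factors called 6170, 7015, 8714 and 4361 in these differences, in the same order. By mitochondrial mRNAs 1519, 7327 and 222 were called for Y1F, S5A and S7A minus WT, and 5368 for untreated S5A. With each comparison's own libraries the number of the 9 called became 3 in the degron line, 0 in WT (from 3), 3 in T4V, 1 for WT minus degron, 1 for Y1F minus WT, 1 for S2A minus WT (from 2), and 1, 0 and 1 for untreated Y1F, T4V and S5A against degron (from 2 each). Of all genes tested there, 6640 of 17231 were called in the degron line, 50 of 16185 in WT and 2648 of 16044 in T4V. For WT minus degron 573 of 17615 were called, for Y1F minus WT 486 of 17660 and for S2A minus WT 497 of 17413. S2A minus WT became 1 with DESeq2 size factors and 1 without a low-count filter, S5A minus WT 1 without the filter and 1 with DESeq2's Wald test, S7A minus WT 1 with the Wald test, and untreated T4V against degron 1 without the filter. With DESeq2 size factors 1409 of all 19982 genes were called for S2A minus WT. Without the filter 1226 of 45744 were called there, 3471 for S5A minus WT and 2408 for untreated T4V.

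With each library left out, the number called ran from 3 to 5 in the degron line, 1 to 2 for Y1F minus WT, 1 to 1 for S2A minus WT, 1 to 3 for S5A minus WT, 0 to 1 for S7A minus WT, and 1 to 2 for untreated WT, 1 to 2 for T4V, 1 to 2 for S5A and 2 to 4 for S7A against degron; 55 single-gene values lost and 5 gained a call, and 876 stayed on their side of the threshold, called or not. Libraries with the same replicate number did not deviate alike in every line. The correlation of deviations was positive in S7A (0.65) and S2A (0.12), and 0.0015 in S5A and -0.09 in T4V. It was negative in WT (-0.50), Y1F (-0.62) and the degron line (-0.75). These values do not settle whether the numbers pair cultures. A replicate block ended 1 call among the 9 genes, ZEB2 in untreated S7A against degron (0.38, adjusted p = 0.06), and gave 8716 calls over all genes in the degron line, against 8881 without it and 9093 with crossed numbers. Without Mock 1 call was lost, FN1 in T4V. CDH1 is limited by its depth of 0 to 20 counts per library.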
